A study of Mus musculus with 9 samples.

Results

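The genes described here encode CD antigens, Ly6 proteins and tetraspanins, 3 overlapping sets of cell surface proteins that are used to tell cell types apart. They were chosen by symbol, as every gene on the array named Cd with a number, Ly6 or Tspan with a number, except Cd36, Cd46 and Cd74. Earlier results of these data were known when they were chosen. Of the 10554 genes that the array annotation names singly, 57 met this rule, and 48 of these had a clone with a value on all 9 arrays, among 8644 such genes in all. Gene expression was measured in the distal tail skin of female hairless, immunocompetent SKH-1 mice, which were 3 weeks old at the start and were sacrificed on day 14. Lymphedema mice had a circumferential skin incision with cautery of the lymphatic trunks, which methylene blue had marked. Sham mice had the incision and the dye without cautery, and normal mice had no surgery. Each state was represented by 9 mice in 3 pools of 3, and each pool was hybridized once, with RNA of whole embryonic-day-17.5 embryos as the reference, to a cDNA array with 2 colors.

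CD antigens are numbered surface molecules defined by the antibodies that bind them. Many are receptors or adhesion molecules of white blood cells, while others mark endothelium, keratinocytes or nearly every cell. Ly6 proteins are small proteins held in the membrane by a lipid anchor, and tetraspanins cross the membrane repeatedly and gather integrins, proteases and receptors into shared patches. In skin, such genes are read from resident keratinocytes, fibroblasts and vessels as well as from leukocytes. In RNA of whole skin, fewer cells of a type and less RNA per cell cannot be told apart.

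Promoters were searched for motifs of PU.1, a transcription factor of myeloid and B cells, and of interferon-driven factors. The PU.1 motif is shown in Cd53 and Ly6c1 because both genes were higher in lymphedema and held it near a transcription start. It was absent from 250 bases before to 50 bases after the starts of Cd302 and Tspan1, which were also higher in lymphedema. At the other start of Ly6c1 the stretch searched ended within this same motif, so that no match was counted there. The sequences come from RefSeq on mouse build GRCm38.p6, run from 200 bases before to 30 bases after a transcription start on the minus strand, and are written 5′ to 3′ along the gene. Capitals mark the motif GAGGAAGT or its reverse complement, at base 7 after the start in Cd53 (chr3:106790120-106790349) and at base −127 before one of the starts of Ly6c1 (chr15:75048634-75048863).
Cd53: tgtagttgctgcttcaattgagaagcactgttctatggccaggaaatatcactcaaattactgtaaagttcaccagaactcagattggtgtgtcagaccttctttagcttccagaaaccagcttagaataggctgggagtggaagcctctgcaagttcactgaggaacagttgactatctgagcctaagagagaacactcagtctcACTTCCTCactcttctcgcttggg
Ly6c1: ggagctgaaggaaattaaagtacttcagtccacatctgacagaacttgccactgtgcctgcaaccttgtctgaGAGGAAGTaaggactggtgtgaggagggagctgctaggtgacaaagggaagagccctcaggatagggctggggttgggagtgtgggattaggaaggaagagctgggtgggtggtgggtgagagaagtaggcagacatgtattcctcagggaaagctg
Both strands were searched in windows of 300 bases, 250 before to 50 after the start. GAGGAAGT was present in 3.2% of all 32851 windows, and in 4 of the 46 windows that 37 of the 48 members have, namely those of Cd53, Ly6c1, Cd82 and Tspan14, of which Tspan14 was called in lymphedema by neither limma nor SAM and Cd82 by SAM alone. The 11 members that were not matched are Cd14, Cd24a, Cd40, Cd52, Cd79b, Cd83, Cd93, Ly6d, Ly6e, Ly6g2 and Ly6g6e. An interferon response element, GAAANNGAA, was present in 8.56% of windows and in those of Cd200r3, Cd59a, Cd9 and Tspan6. The STAT motif TTCNNNGAA was present in 8.3% of windows and in those of Cd160 and Cd82. A match to these letters is a description and not a site of binding.

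The deposited values are log ratios of the 2 channels, and their log base is not stated and was read as log2. The dyes are given in opposite ways, with skin RNA in Cy5 by the labels and in Cy3 by the methods. As deposited, 22 or 23 of 23 genes typical of embryos were above 0 on every array, and 7 or 8 of 9 genes typical of adult skin were below 0. On this basis the reference was taken as the numerator, against the labels' dyes, and the sign was turned, so that a positive value means more RNA in tail skin than in the embryo. Every array was centered on its median. Missing values divided the arrays, since 186 features had values for lymphedema array 1 and the normal arrays but for none of the 5 others, and the next highest count among the 126 such divisions was 45. These are called the missing-value sets, and what they stand for is not given in the sources used here. All 3 sham arrays lie in one set and all 3 normal arrays in the other, so that for sham against normal skin the state and the set cannot be told apart.

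In normal skin 21 of the 48 members were above the embryo reference and 27 below, with a median log2 level of −0.17, against −0.10 for all genes. All 6 measured Ly6 genes were above it. Ly6d, a keratinocyte surface protein, had the highest level of any member, 3.95 ± 0.25 (SD, n = 3 pools). Ly6g6c, encoded in the major histocompatibility region, was at 2.78 ± 0.36 and Ly6c1, a surface protein of monocytes and endothelium, at 2.77 ± 0.31, and these neighbors did not differ beyond their spread. Ly6g6e was at 1.56 ± 0.41, Cd9, a widely expressed tetraspanin, at 1.31 ± 0.10, and Cd151, an integrin-binding tetraspanin of basal keratinocytes, at 1.20 ± 0.12. At the other end were Tspan6 at −2.05 ± 0.19, Cd55, a complement regulator, at −2.04 ± 0.18, and Tspan1 at −1.87 ± 0.08. These values compare skin with embryo for one gene at a time and do not rank RNA levels between genes.

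**Figure D1:**
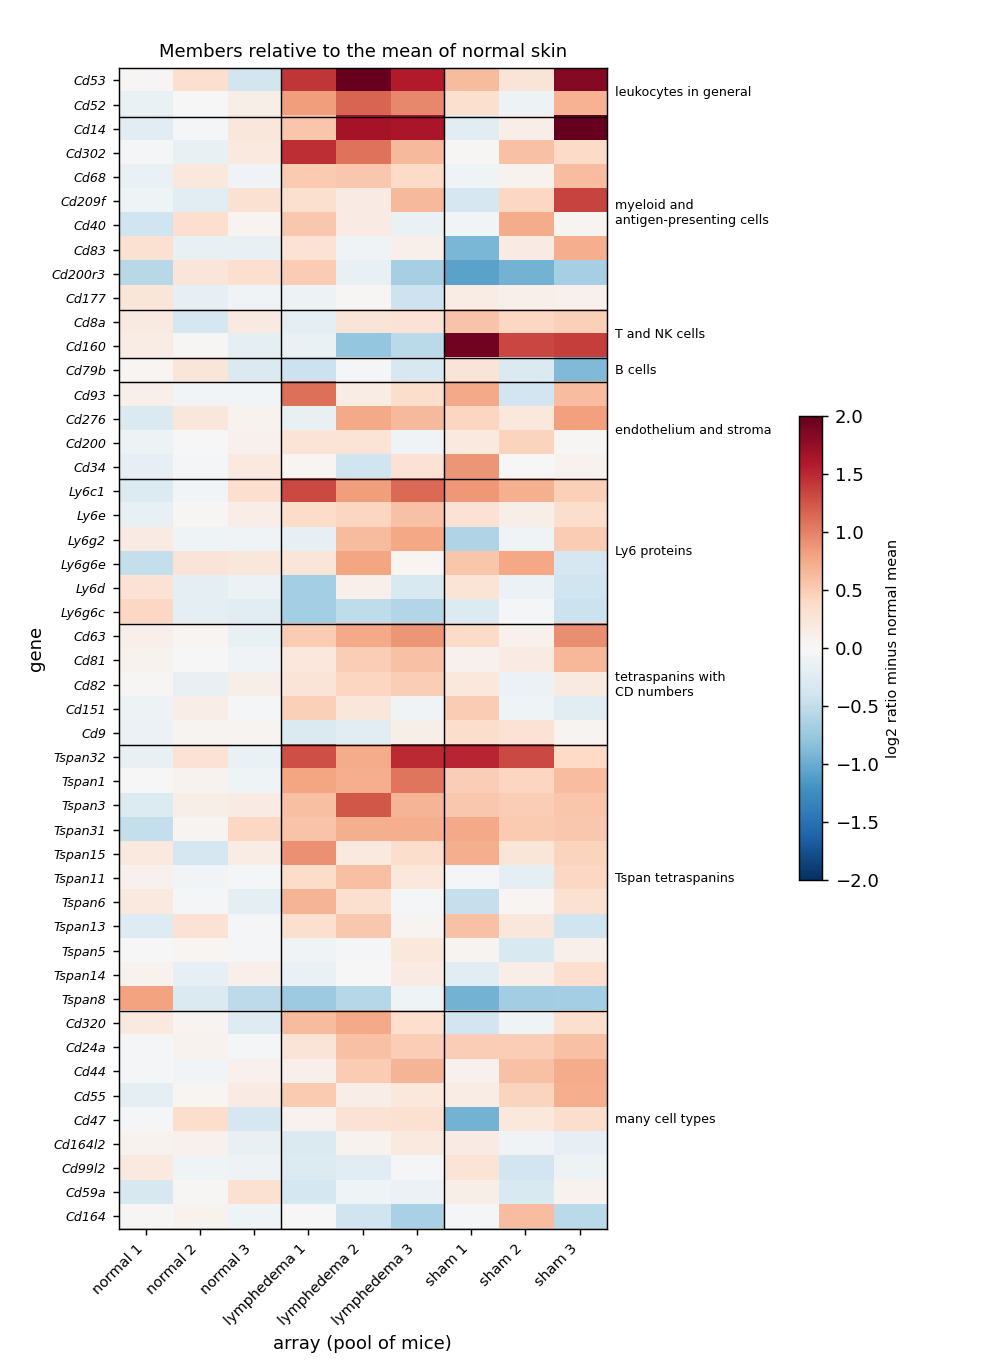
Each row is a member with a value on all 9 arrays, each column an array of 1 pool, and the color is the log2 ratio minus the mean of the 3 normal arrays, with values beyond the ends of the scale drawn in the end color. Cd53, Cd52, Cd302 and Tspan32 were above every normal array on all 3 lymphedema arrays, and Cd160 was high on the 3 sham arrays.

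The first comparison asked which members differed between lymphedematous and normal skin. Cd53, Cd52, Cd302, Ly6c1 and Tspan1 were higher in lymphedema, between 1.82-fold and 3.19-fold, and 0 members were lower in limma at a Benjamini-Hochberg adjusted p under 0.05. These 5 made up 10.4% of the 48 members, where 2.83% of all genes were higher and 0.602% lower by the same threshold. At an unadjusted p under 0.05 in limma, 17 of the 48 members differed, 16 higher and 1 lower, beside 1776 of the 8644 genes. A SAM test at a false discovery rate of 5% called 17 members higher and 0 lower. The count that SAM called over all genes is not given here, so its calls are not read as particular to the members. All 3 lymphedema arrays exceeded all 3 normal arrays for 19 members, or 39.6%, and for 23.6% of all genes, and they lay below them for 1 member, Ly6g6c, or 2.08%, and for 10.2% of all genes. The log2 differences of the members ran from −0.59 to 1.68 with a median of 0.34, beside 0.10 for all genes. Of the members 72.9% were above 0, as were 62.0% of all genes.

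Cd53 and Cd52, the members that mark leukocytes in general, both rose, and Cd53 had the largest difference of any member. Cd53 is a tetraspanin of leukocytes, with log2 levels of −1.07, −0.77 and −1.46 in normal skin, 0.33, 0.90 and 0.49 in lymphedema, and −0.46, −0.85 and 0.73 in sham skin. The lymphedema arrays were all above the normal arrays, and sham array 3 lay among the lymphedema arrays. The difference of lymphedema from normal was 1.68 ± 0.35 (SE, n = 3 pools per state, limma adjusted p = 0.033), or 3.19-fold. Cd52, a short lipid-anchored glycoprotein of lymphocytes and other leukocytes, had log2 levels of −0.36, −0.23 and −0.11 in normal skin, 0.60, 0.93 and 0.72 in lymphedema, and 0.09, −0.34 and 0.47 in sham skin. Its lymphedema arrays were above every array of both other states. The difference from normal was 0.98 ± 0.21 (SE, limma adjusted p = 0.037), or 1.98-fold, as a mean of 3 clones that gave 0.49, 0.79 and 1.68. For both genes together the median difference from normal was 1.33 in lymphedema and 0.61 in sham skin.

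Of the 12 members of myeloid and antigen-presenting cells, 8 were measured on every array, 1 passed in limma, and 6 had a positive difference, with a median of 0.28. SAM called 3 of the 8, Cd302, Cd14 and Cd68, each also below an unadjusted p of 0.05 in limma. Cd302, a C-type lectin receptor of macrophages and dendritic cells, had log2 levels of −0.19, −0.31 and 0.04 in normal skin, 1.32, 0.94 and 0.49 in lymphedema, and −0.14, 0.42 and 0.23 in sham skin. Its lymphedema arrays did not overlap either other state. The difference from normal was 1.07 ± 0.24 (SE, limma adjusted p = 0.037), or 2.10-fold. Cd14, the co-receptor for bacterial lipopolysaccharide, had the largest difference of this group, 1.28 ± 0.55 (SE, limma adjusted p = 0.22), and did not pass in limma. Its log2 levels were 0.54, 0.72 and 0.98 in normal skin, 1.31, 2.42 and 2.38 in lymphedema, and 0.53, 0.89 and 3.10 in sham skin. Sham array 3 was the highest of all 9 while the other sham arrays lay at 0.53 and 0.89, near the normal range. A second Cd14 clone, without values on normal arrays 1 and 2, was not used. It was at 0.74 on normal array 3 and at 2.07, 2.95 and 2.87 in lymphedema. In sham skin it was at 1.59, −0.09 and 2.84, so that sham array 3 was not the highest there. Without sham array 3 in the fit, Cd14 passed in limma at an adjusted p of 0.025 and the number of members higher in lymphedema was 9 in place of 5. Cd68, a lysosomal glycoprotein of macrophages, differed by 0.49 ± 0.21 (SE, limma adjusted p = 0.21), with levels of −1.43 to −1.08 in normal skin and −0.90 to −0.76 in lymphedema, so that the arrays did not overlap. The C-type lectin Cd209f differed by 0.38, the costimulatory receptor Cd40 by 0.19 and Cd83, a surface protein of mature dendritic cells, by 0.10. Cd200r3, a receptor of mast cells and basophils, differed by −0.10 and the neutrophil antigen Cd177 by −0.16, the lowest of the group. The value of Cd177 was a mean of 2 clones at −0.46 and 0.15. Another clone of Cd177 and another of Cd83, each with values on 8 arrays, differed by 0.91 and 0.85 and were not used.

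Of the 3 measured members of T, natural killer and B cells, 0 passed in limma for lymphedema against normal skin. In this comparison 0 were at an unadjusted p under 0.05 and 0 were called by SAM. Cd8a, the co-receptor of cytotoxic T cells, differed by 0.12 ± 0.20 in lymphedema, a difference whose sign turned under quantile normalization (−0.06). Cd160, a lipid-anchored receptor of natural killer and T cells, differed by −0.48 ± 0.22 (SE, limma adjusted p = 0.25). Cd79b, a signaling chain of the B cell receptor, differed by −0.26 ± 0.27. Cd3g, a chain of the T cell receptor complex, had no value on normal array 1 and was not tested. It was at 0.41 and 0.46 on the other normal arrays, 1.19, 0.89 and 1.21 in lymphedema, and 0.94, 1.19 and 1.38 in sham skin, so that both operated states lay above the 2 normal arrays.

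Among the Ly6 proteins 1 of 6 passed in limma, 4 were above 0, and the median difference was 0.38. SAM called 2, Ly6c1 and Ly6e. Ly6c1 had log2 levels of 2.49, 2.72 and 3.10 in normal skin, 4.09, 3.60 and 3.91 in lymphedema, and 3.64, 3.48 and 3.25 in sham skin. Both operated states were above every normal array, and they overlapped each other. The difference of lymphedema from normal was 1.10 ± 0.21 (SE, limma adjusted p = 0.027), or 2.14-fold. A near-identical gene, Ly6c2, can bind the same clone, so that the value may belong to either. Ly6e, an interferon-inducible member, differed by 0.46 ± 0.17 (SE, limma adjusted p = 0.14), and its 4 clones ranged from −0.41 to 0.89. Ly6g2 differed by 0.41 and Ly6g6e by 0.35. Ly6g6c had the lowest difference of any member, −0.59 ± 0.21 (SE, limma adjusted p = 0.14), with normal arrays from 2.55 to 3.19 and lymphedema arrays from 2.10 to 2.28, which did not overlap. Ly6d differed by −0.29 ± 0.25, which turned to 0.22 when arrays were scaled to one median absolute deviation.

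**Figure D2:**
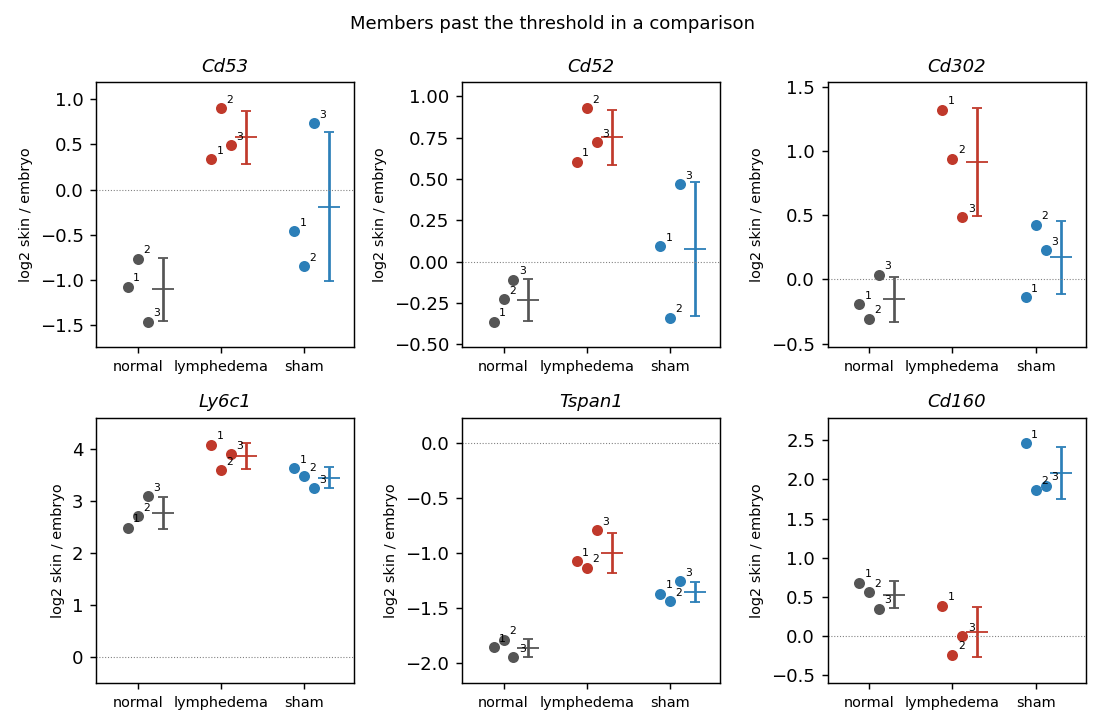
Each panel shows 1 member that passed in a comparison, with the log2 ratio of skin over embryo on the vertical axis, numbered points for the 3 pools of a state, and a bar for the mean ± SD. The vertical axes differ between panels, and Cd160 is the only panel in which the sham arrays lie above both other states.

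Tetraspanins were represented by 11 measured Tspan genes, of which 1 passed in limma and 10 were above 0 (median 0.39), and by 5 genes with CD numbers, of which 0 passed in limma and 4 were above 0 (median 0.39). SAM called 5 of the 11, Tspan1, Tspan3, Tspan11, Tspan31 and Tspan32. Of those with CD numbers, Cd63, Cd81 and Cd82 were below an unadjusted p of 0.05 in limma and were called by SAM. Tspan1, which is found in epithelia, had log2 levels of −1.86, −1.79 and −1.95 in normal skin, −1.07, −1.13 and −0.79 in lymphedema, and −1.37, −1.44 and −1.25 in sham skin. The 3 states did not overlap, with sham skin in between. The difference of lymphedema from normal was 0.87 ± 0.17 (SE, limma adjusted p = 0.027), or 1.82-fold. Tspan32, a tetraspanin of blood cells, had the largest difference of the Tspan genes, 1.18 ± 0.30 (SE, limma adjusted p = 0.058), and did not pass in limma. Its levels were −1.12, −0.68 and −1.10 in normal skin, 0.33, −0.23 and 0.52 in lymphedema, and 0.56, 0.36 and −0.57 in sham skin. Both operated states thus lay above every normal array. Tspan3 differed by 0.84 ± 0.21 (SE, limma adjusted p = 0.052) and Tspan31 by 0.68 ± 0.22, each without overlap of the arrays. Tspan11 differed by 0.39, Tspan6 by 0.33 and Tspan13 by 0.30. Among the partners of the protease ADAM10, Tspan15 differed by 0.48, Tspan5 by 0.03 and Tspan14 by 0.01. Tspan8, an epithelial tetraspanin, had the lowest difference, −0.46 ± 0.31. Among the latter, Cd63, which sits in lysosomes and secretory granules, had the largest, 0.72 ± 0.22 (SE, limma adjusted p = 0.0997), and all 5 of its clones were positive, from 0.59 to 0.89. Cd81, a partner of the B cell receptor complex, differed by 0.43, Cd82 by 0.39 and Cd151 by 0.21. Cd9 was at −0.14, which turned to 0.03 on scaling to one median absolute deviation.

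Of the 4 members of endothelium and stroma and the 9 carried by many cell types, 0 passed in limma, where Cd24a and Cd320 were below an unadjusted p of 0.05 and were called by SAM. Cd93, a lectin-like receptor of endothelium, differed by 0.53 ± 0.31, and its lymphedema arrays, 1.43, 0.48 and 0.68, were all above the normal range of 0.27 to 0.44. Cd276, an inhibitory ligand of the B7 family, differed by 0.42 and Cd200, the ligand of the Cd200 receptors, by 0.16. Cd34, a sialomucin of vessels and progenitor cells, was the lowest at −0.02 ± 0.26. Among the widely carried members Cd320, the receptor for transcobalamin-bound vitamin B12, had the largest difference, 0.57 ± 0.22, followed by Cd24a at 0.44 ± 0.16 and Cd44, the hyaluronan receptor, at 0.43 ± 0.21. In all 3 the lymphedema arrays were above the normal arrays. For Cd44 the mean covered 5 clones from −0.01 to 1.20. Cd55 differed by 0.29 and Cd47, a signal that restrains phagocytes, by 0.22. Below 0 were Cd164l2 (−0.0033), Cd99l2 (−0.17), the complement regulator Cd59a (−0.18) and the sialomucin Cd164 (−0.35 ± 0.27).

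**Figure D3:**
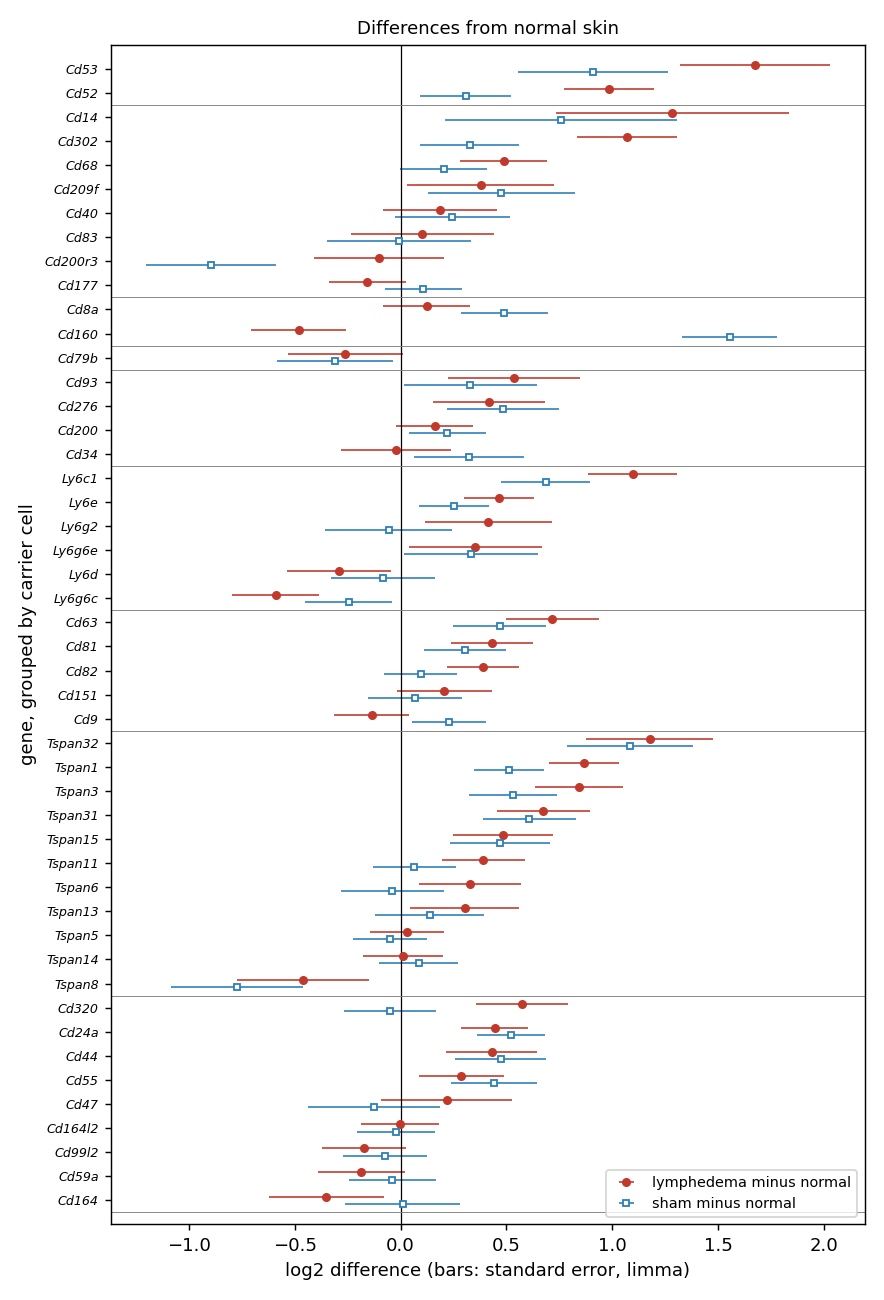
Points give the log2 difference of each member from normal skin, filled for lymphedema and open for sham, with the limma standard error as a bar and horizontal lines between carrier groups. Most points are right of 0 in both states, which share the normal arrays, and Cd160 is the member with the widest gap between its points.

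These calls rested on few arrays. Leaving out any normal or lymphedema array took the number of members called from 5 to 0 or 1, with Ly6c1 passing without normal array 3 and Cd302 without lymphedema array 3. Within the missing-value set of the normal arrays, lymphedema array 1 exceeded the normal mean by 1.43 for Cd53, 0.84 for Cd52, 1.48 for Cd302, 1.32 for Ly6c1 and 0.79 for Tspan1, and with the set as a block, where this 1 array is the lymphedema side, 0 members passed.

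The 20 members with more than 1 clone on all arrays had 57 clones. The clones of 11 of these members were of one sign in lymphedema against normal skin, and in the other 9 they were of opposite sign. The closest were Cd55 (0.27 and 0.30) and Cd81 (0.41 and 0.45). The widest apart were Ly6e, Cd44 and Cd52, whose clones differed by 1.29, 1.21 and 1.19. In a fit over all features, 1 clone of Cd44 passed (log2 difference 1.20, limma adjusted p = 0.024), as did the clone of Cd52 at 1.68 (limma adjusted p = 0.0053).

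**Figure D4:**
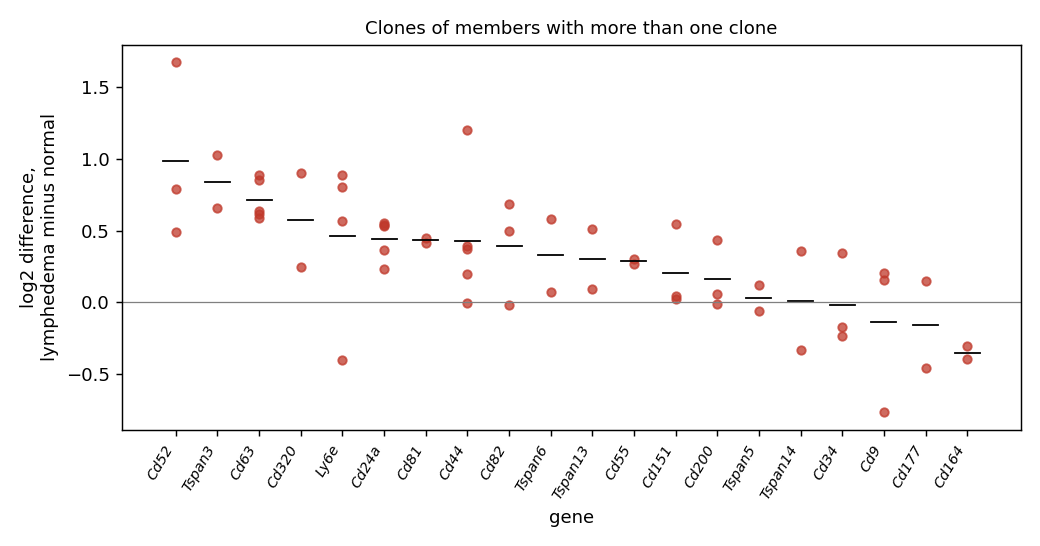
Points are the log2 differences of lymphedema from normal skin for the single clones of members with more than 1 clone, and dashes are the gene's mean. Every clone of Cd52, Cd63 and Cd24a is above 0, while the clones of Ly6e run from −0.41 to 0.89.

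Sham against normal skin compared the incision without lymphatic cautery with no surgery. Here the state cannot be told apart from the missing-value set, as stated above. In limma 0 members passed in either direction, as did 0 of the 8644 genes (0% higher and 0% lower). Below an unadjusted p of 0.05 were 13 members, 11 of them higher, and 685 of the 8644 genes. SAM called 1 member higher, Cd160. The 3 sham arrays were all above the normal arrays for 10 members, or 20.8%, and for 9.72% of all genes. They were all below them for 2, Cd200r3 and Tspan8, or 4.17%, and for 3.09% of all genes. The members had a median difference of 0.24, beside 0.06 for all genes. The normal arrays are the same as in the comparison with lymphedema. For the 5 members that rose in lymphedema, the sham difference was 0.91 for Cd53, 0.31 for Cd52 and 0.33 for Cd302. For Ly6c1 it was 0.69 and for Tspan1 0.51. Each was smaller than in lymphedema, an order that is favored because these 5 were picked by their difference in lymphedema. Some of the sham differences rested on single arrays. Without sham array 3 the sham difference was 0.45 for Cd53 and 0.11 for Cd52. Without sham array 2 it was 0.51 for Cd52 and 0.20 for Cd302. Cd8a was at −0.35, −0.51 and −0.44 in sham skin and −0.74, −1.28 and −0.75 in normal skin, a difference of 0.49 ± 0.20 (SE, limma adjusted p = 0.57). Cd200r3 was at −0.59, −0.46 and −0.18 in sham skin and −0.07, 0.72 and 0.80 in normal skin, a difference of −0.90 ± 0.31 (SE, limma adjusted p = 0.48). Neither gene's arrays overlapped, and neither passed.

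Lymphedema against sham skin compared the incision with and without lymphatic cautery. Lymphedema array 1 lies outside the missing-value set of the sham arrays. Cd160 was the member that passed, and it was lower in lymphedema. Its log2 levels were 0.68, 0.56 and 0.35 in normal skin, 0.39, −0.24 and −0.01 in lymphedema, and 2.46, 1.87 and 1.92 in sham skin. The 3 sham arrays lay far above all 6 others, and the lymphedema and normal arrays overlapped. The difference of lymphedema from sham was −2.04 ± 0.22 (SE, n = 3 pools per state, limma adjusted p = 0.012), so that Cd160 was 4.10-fold lower. Sham skin differed from normal skin by 1.55 ± 0.22, or 2.94-fold (limma adjusted p = 0.11). Cd160 was measured by 1 clone. Within the missing-value set that holds lymphedema arrays 2 and 3 and the sham arrays, the difference was −2.21 (limma adjusted p = 0.25), and the call was also lost without lymphedema array 2 (−1.89) or 3 (−2.01). Of the other members of T and natural killer cells, Cd8a was likewise lower on all 3 lymphedema arrays than on the sham arrays, by 0.37 ± 0.20 (limma adjusted p = 0.70), and Cd3g was at a mean of 1.10 in lymphedema and 1.17 in sham skin.

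Against sham skin 1 of 48 members was lower, or 2.08%, and 0 were higher, where 0.0116% of all genes were lower and 0.0116% higher. At an unadjusted p under 0.05 there were 4 members higher and 1 lower, beside 643 of the 8644 genes in either direction. SAM called 0 members higher and 1 lower, Cd160. The lymphedema arrays were all above the sham arrays for 8 members, or 16.7%, beside 6.63% of all genes, and all below for 4, or 8.33%, beside 3.69%. Of the 5 members that rose against normal skin, Cd52, Cd302 and Tspan1 were among these 8. Their differences from sham were 0.68, 0.74 and 0.36 (limma adjusted p of 0.51, 0.51 and 0.67). The 5 were picked for being high in lymphedema, which favors a positive difference from sham. Cd53 and Ly6c1 differed from sham by 0.77 and 0.41, with arrays that overlapped. Without sham array 3 the difference of Cd53 was 1.23 and passed (limma adjusted p = 0.048). Cd200r3, Cd320, Cd82, Ly6e and Tspan3 made up the rest of the 8, from 0.21 (Ly6e) to 0.80 (Cd200r3). Within the missing-value set that holds lymphedema arrays 2 and 3 and the sham arrays, the difference was 0.49 for Cd200r3 and 0.54 for Cd302. It was 0.60 for Cd320, 0.36 for Cd82, 0.26 for Ly6e, 0.43 for Tspan3, 0.75 for Cd52 and 0.39 for Tspan1. Cd177 and Ly6g6c were the other members below the sham arrays, by 0.26 and 0.35.

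Members without a clone on all 9 arrays were Cd1d1, Cd209b, Cd244a, Cd3g, Cd69, Cd80, Cd86, Tspan12 and Tspan18, and they were not tested. Cd209b had values on 8 arrays, 1.19 and 1.38 in normal skin, 1.21, 1.71 and 1.93 in lymphedema, and 1.25, 2.05 and 2.30 in sham skin, which overlap. Cd69, an early activation antigen of lymphocytes, had 8, with a mean of 0.99 in normal skin, 0.48 in lymphedematous skin and 0.67 after sham surgery. Cd244a, a receptor of natural killer cells, had 8, with means of −0.57, −0.31 and −0.77 in the same order. The clones of Cd1d1, which presents lipids to T cells, had 8 and 4 values, and those of Cd80, a ligand for T cell costimulation, 8 and 6. Tspan12 and Tspan18 had 7 each, and Cd86, the other such ligand, had 2, both in normal skin.

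Other genes of the same cells and families gave 38 measured genes of 107 listed, with a median difference of lymphedema from normal skin of 0.31. Of the 38, 8 were higher in lymphedema than in normal skin in limma, beside 2.83% of all genes, and the rest did not pass. Of the leukocyte genes, Coro1a, an actin regulator of leukocytes, rose by 1.86 (adjusted p = 0.014 in limma), Fcer1g, the shared signaling chain of Fc receptors, by 2.48 (adjusted p = 0.017) and Fcgr1, an Fc receptor of macrophages, by 0.68 (adjusted p = 0.040). They were 1 of 6 measured common leukocyte genes (median 0.25) and 2 of 8 measured myeloid receptors (median 0.38). In each of these lists 2 genes had a negative difference, the integrin chain Itgal at −0.66 and Selplg at −0.06 in the first, and the lectin Clec4e at −0.30 and the growth factor receptor Csf1r at −0.06 in the second, and these did not pass. Of 8 measured endothelial antigens, with a median of 0.94, 7 were above 0 and 4 passed, namely Selp, a selectin, at 1.12, the growth factor receptor Kdr at 0.99, the adhesion molecule Mcam at 0.96 and the co-receptor Eng at 0.92. Pecam1 at 0.98, Procr at 0.66 and Icam2 at 0.29 did not pass, nor did Thbd, an anticoagulant receptor, at −0.28, whose lymphedema arrays were all below the normal arrays. Of 4 measured relatives of the Ly6 family, Gpihbp1, which carries lipoprotein lipase on capillaries, rose by 1.12 (adjusted p = 0.027 in limma). The 9 measured tetraspanin partners, with a median of −0.02, did not pass, nor did 2 T and natural killer cell receptors and 1 B cell receptor gene. In sham skin the difference from normal was 0.94 for Selp, 0.73 for Mcam, 0.50 for Eng and 0.43 for Kdr. It was 0.63 for Gpihbp1, 0.96 for Fcer1g, 0.38 for Fcgr1 and 0.31 for Coro1a. All 8 endothelial antigens were above 0 in sham skin (median 0.46). The 8 genes that passed against normal skin did not pass against sham skin in limma.

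Genes typical of other cells of the tail moved between arrays as well. Of 7 measured keratinocyte genes 6 were above the embryo reference in normal skin and their median difference of lymphedema from normal skin was 0.03. The 6 measured fibroblast genes had a median of 0.53, with 5 above 0 and Fap at −0.74. The 3 measured genes of wound-activated keratinocytes had a median of 0.54 and the 5 of adipocytes one of 0.26. The genes of these 4 lists did not pass in limma. Of 4 measured hair follicle and sebaceous gland genes 1 was lower in lymphedema, Krtap13, by 1.73 on the log2 scale (limma adjusted p = 0.0059), while Krt27, Krt71 and Lhx2 were at 0.86, 0.74 and 0.33 without passing, and the median was 0.53. Of 12 listed skeletal muscle genes 7 were measured, and all 7 were below the embryo reference in normal skin. Their median relative to normal skin was 0.04, 0.63 and 1.84 on the sham arrays and 0.07, 0.07 and 0.23 on the lymphedema arrays. Sham array 3, on which Cd14 and Cd53 were highest among the sham arrays, was thus also the one with the highest muscle genes and the highest fibroblast genes, at 0.93. It was also the highest sham array for the common leukocyte genes (0.65), myeloid receptors (0.48) and endothelial antigens (0.80). It was the lowest sham array for genes of keratinocytes (−0.03), wound-activated keratinocytes (0.05), hair follicle and sebaceous gland (−1.12) and adipocytes (0.08). The part of other cell types in the differences between states was not tested.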

How the data were processed

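Skin RNA of 3 pools each of normal, lymphedema and sham mice was hybridized with embryo reference RNA on 9 cDNA arrays. The authors extracted features with GenePix, subtracted background and normalized the dyes. What was deposited is 1 log2 ratio of both channels for each feature of an array, on a log base read as log2. The authors' filter on reference signal and their imputation are not in the table, their centering is not stated, and signal over background was not used here.

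The sign of the ratios was turned, and each array was centered on its median. Of 42624 features, 30702 had a value on all 9 arrays and 15723 of these are named by 1 gene. Between 1.34% and 12.6% of an array's values were missing, and array pairs correlated at 0.818 to 0.960 across features. Another 5 features name a member together with another gene and were left out. Values of all clones of a gene were averaged. limma 3.58.1 in R 4.3.3 was fitted to all 9 arrays with state as the only term, and p was adjusted by Benjamini-Hochberg over 8644 genes at 0.05. SAM was written anew at 5%, and both were tested on simulated data. Standard errors share 1 estimate of the spread over all arrays, and the number of arrays limits the precision. Plots were made in Python 3.11.15 with matplotlib 3.10.9.

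The members, lists and motifs were chosen with earlier results of these data known. Genes named are the members past the threshold, the highest and lowest of each carrier group, lineage markers, the members without a full set of values, and companion genes past the threshold. The other members, comparisons against sham and the companion and other genes that did not pass were named after their values were seen. Alternatives were other centering and scaling, a filter on 2 of 3 values, 1 clone per gene, 2 states only, SAM, the replicate number and the missing-value set as blocks, and each array left out. The fit within 1 missing-value set, and alternatives for the levels, were added after seeing the data.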

Additional observations from a re-analysis of the deposited data

Results flagged for a closer look

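Cd160 met the rule for an effect that differs between states, since lymphedema and sham skin differed from each other in limma. The log2 difference from normal skin was −0.48 in lymphedema (limma adjusted p = 0.25, with arrays that overlapped) and 1.55 in sham skin (limma adjusted p = 0.11), and neither passed. Lymphedema array 1, in the missing-value set of the normal arrays, differed from the normal mean by −0.14. Between lymphedema and sham skin the difference was −2.04 (limma adjusted p = 0.012 over 8644 genes, n = 3 pools per state). It was negative under each of 18 alternatives, from −2.21 to −1.85, and passed in 14 of them. It rests on 1 clone, and the cause was not tested.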

How the results depend on the processing

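For lymphedema against normal skin, the 5 members called became 3 with quantile normalization, 9 with arrays of the 2 states only, 17 by SAM, 0 with the missing-value set as a block, and 0 to 9 with 1 array left out. The replicate numbers share only a number: 1 of 9 pairs of same-numbered arrays correlated over 0.1 (range −0.24 to 0.28), 3 arrays correlated best with their own number, and the fit with the replicate block called 2 members. For sham against normal skin, the count of 0 became 1 by SAM and 0 to 1 with 1 array left out (1 without sham array 3). For lymphedema against sham skin, the count of 1 became 0 with arrays of the 2 states only, 0 within 1 missing-value set, and 0 to 2 with 1 array left out (2 without sham array 3, where Cd53 was added).

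The median difference of 0.34 from normal skin stayed positive, at 0.28 without centering, 0.30 scaled to one median absolute deviation, 0.19 with quantile normalization, 0.24 with 1 clone per gene, 0.28 with the missing-value set as a block, and 0.26 to 0.37 with 1 array left out. The median of all genes was 0.10, and 0.04, 0.08 and 0.02 under the first 3 of these. The median level in normal skin of −0.17 became −0.076 without centering, −0.23 with 1 clone per gene, and −0.22 to −0.12 with 1 array left out.

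Across 27 named genes, 669 recomputed values included 606 that kept direction and side of the threshold, 44 that lost a call, 9 that gained one and 10 that turned sign. Those that turned were Cd177 (0.10 with values on 2 of 3 arrays per state), Cd34 (0.046 with the set as a block, and −0.18 to 0.17 with 1 array left out), Cd8a (−0.056 with quantile normalization, −0.18 with the set as a block, and −0.056 to 0.28 with 1 array left out), Cd9 (0.034) and Ly6d (0.22) when scaled to one median absolute deviation, and Ly6e (−0.41 with 1 clone). Cd177, Cd34, Cd8a, Cd9, Ly6d and Ly6e did not pass in limma as reported, though SAM called Ly6e, and the cause was not tested. With 3 pools per state, differences near the median standard error of 0.22 were not resolved.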
